A study of Homo sapiens with 10 samples.

Results

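Segments in which chromatin signal was at the floor in K562 but present in HepG2 were chosen by measured H2AX depth, as autosomal 10-kb windows with at least 5 retained bins of 1 kb. In each window, relative H2AX depth (mean read depth divided by the mean of the same track without chromosome Y) had to be under 0.1 in both K562 H2AX libraries and at least 0.5 in both HepG2 H2AX libraries. The rule found 927 of 265024 windows (0.350%), or 9.27 Mb, in 26 unbroken runs. Joining runs across up to 2 other windows gave 14 loci, and 2 of these on the short arm of chromosome 9 held 879 of the windows (94.8%).

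The series asked where gamma-H2AX lies in irradiated cells. Gamma-H2AX is H2AX, a variant of histone H2A, after the phosphorylation that follows a double-strand break in DNA nearby. In CUT&RUN, the assay used, a nuclease bound to an antibody cuts out the chromatin that carries the target for sequencing. K562 is a human myeloid leukaemia line and HepG2 a human hepatocellular carcinoma line. The groups were K562 gamma-H2AX at 1 h (n = 2) and 24 h (n = 2) after 6 Gy of cobalt-60 radiation, HepG2 gamma-H2AX at 1 h after 6 Gy (n = 1), and K562 H3K27me3 at 1 h after 6 Gy (n = 1). Without irradiation there were H2AX libraries of K562 (n = 2) and of HepG2 (n = 2). For the H2AX libraries the labels name an antibody to histone H4, so they are read here as untreated chromatin whichever histone was bound. The labels do not say whether replicates were separate cultures, and p-values therefore reflect a spread between libraries that may be technical only.

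Cancer lines often lack whole stretches of a chromosome. K562 is known to lack part of the short arm of chromosome 9, which in humans holds CDKN2A and CDKN2B, encoding inhibitors of cyclin-dependent kinases and the p53-protecting protein ARF. The same stretch holds MTAP, a methionine salvage enzyme, and the type I interferon cluster. A stretch missing from every copy of a chromosome gives no reads in any library of the line, whichever antibody is used, and a stretch missing from some copies gives fewer. In these tracks a missing stretch and one from which no fragment was released cannot be told apart, and "floor" below means only the level that remained.

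Mean depth per base ran from 0.326 to 1.78 in the 7 K562 tracks and from 0.521 to 0.641 in the 3 HepG2 tracks. Most low bins held a whole multiple of 60 bp in 3 tracks, the H3K27me3 track and both K562 gamma-H2AX tracks at 1 h, and a whole multiple of 41 bp in the other 7. Replicate 1 of the K562 24 h group stood apart. The highest mean depth of the 1 h replicates in any autosomal bin where it was above 0 was 1.642, a limit thus taken from this track. The 916314 autosomal bins (34.6%) above that limit therefore read 0 in it by definition. In 24 h replicate 2, which did not set the limit, 0.297% of them read 0. Results that use this track are given with and without it where it changes them. Inside the segments the 1 h tracks were close to 0, so this loss of bins touched few of the values there.

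Of the values that chose the windows, K562 H2AX averaged 0.164% and 0.182% of the track mean over the 927 windows in replicates 1 and 2, and HepG2 H2AX averaged 95.3% and 96.5%. These are the rule's own measurements and carry no test. Just inside the K562 threshold lay chr9:44240001-44250000, chr10:126680001-126690000 and chr4:34820001-34830000, whose higher K562 replicate read 0.0801, 0.0708 and 0.0550. Just outside it lay windows starting at 68740001 on chromosome 3, 126640001 on chromosome 10 and 32900001 on chromosome 16, with 0.111, 0.125 and 0.128. The lower HepG2 replicate read 0.503, 0.512 and 0.514 in the windows just inside the HepG2 threshold, and 0.499, 0.493 and 0.489 in those just outside. Few windows lay near the K562 threshold: a limit of 0.05 kept 924 windows and a limit of 0.2 gave 981. In all, 3494 windows were under 0.1 in both K562 H2AX libraries, and 2391 of these were also under 0.1 in both HepG2 H2AX libraries.

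The opposite pattern, low in HepG2 H2AX and kept in K562 H2AX, was found in 31 windows in 6 runs. The longest of these runs spanned 19 windows at chr5:59190001-59380000. The K562 segments were thus far longer in total than their HepG2 counterparts under mirrored thresholds.

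The longest segment lay on the distal part of the chromosome 9 short arm. Its edges, placed in 1-kb bins by the best least-squares step in the K562 H2AX libraries, were chr9:20751001-26590000, a length of 5.839 Mb. Of 583 windows in this locus 575 met the rule, and the other 8 were all below the HepG2 threshold in at least 1 HepG2 replicate and had K562 H2AX of 0.0122 or less. The K562 side was therefore unbroken, and the runs within the locus were divided by single low HepG2 windows.

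A second segment, nearer the centromere, spanned chr9:28554001-31622000, or 3.068 Mb, with 304 of 306 windows meeting the rule. Both windows that did not were again low in HepG2. Between the segments K562 kept signal over 1.964 Mb, at chr9:26590001-28554000. The floor and the kept stretch alternated with steps at 4 edges, as the profile across the arm shows.

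**Figure D1:**
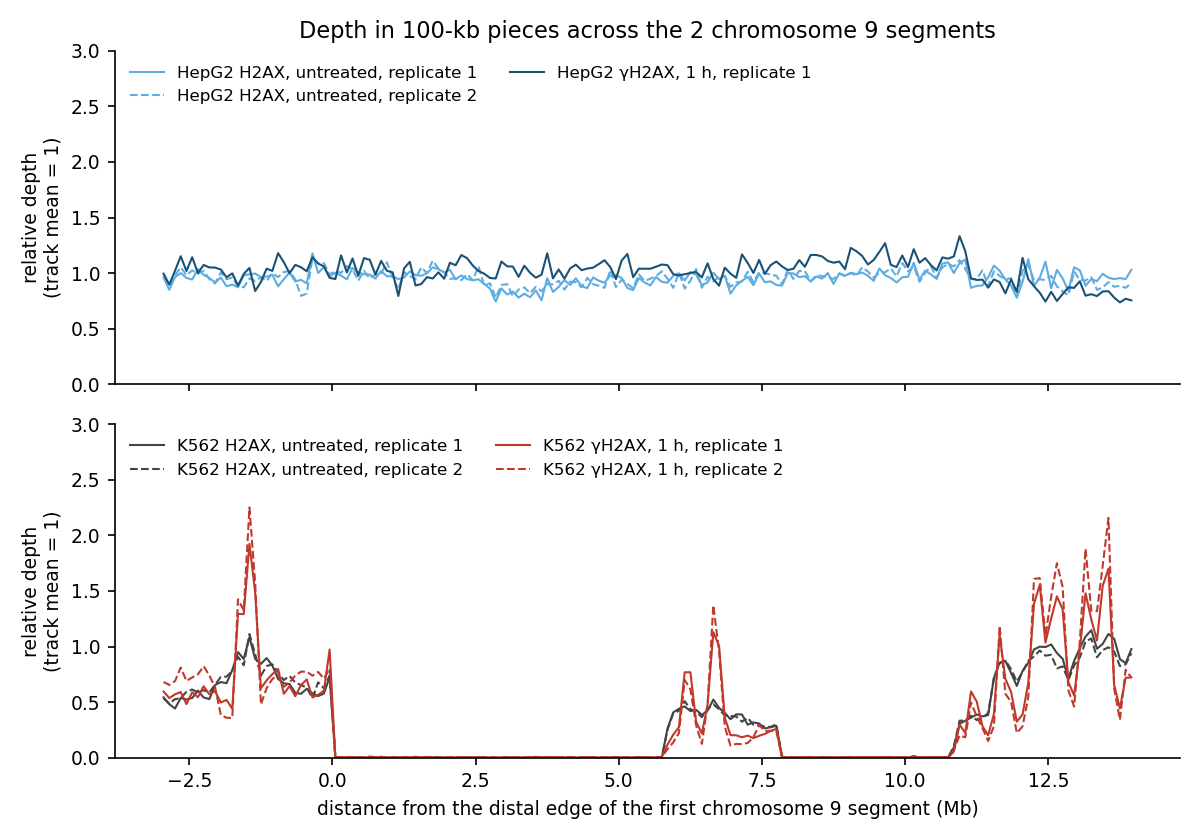
Relative depth (track mean = 1) in 100-kb pieces across the chromosome 9 short arm, with distance in Mb from the distal edge of the first segment; the upper panel shows HepG2 libraries and the lower panel K562 libraries, 1 line per replicate. HepG2 lines stay near 1 throughout, and all K562 lines lie on 0 over 5.839 Mb and 3.068 Mb on either side of a kept stretch of 1.964 Mb.

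In the RefSeq annotation of GRCh38, another build than the hg19 of the tracks and used here only for names and order, the arm runs from MLLT3 and FOCAD through HACD4, IFNB1 and the IFNA genes to KLHL9, IFNE, MTAP, CDKN2A, CDKN2B and DMRTA1. It goes on with ELAVL2, IZUMO3, TUSC1, CAAP1, PLAA, IFT74, LRRC19, TEK, EQTN, MOB3B, IFNK, C9orf72 and LINGO2. Which of these genes lie inside the hg19 segments was not determined here, because no hg19 annotation was used. No sequence of the segments is printed for the same reason.

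At the distal edge of the first segment the step was the tallest of the chromosome 9 edges. Over the 20 kb outside it K562 H2AX replicate 1 read 0.875 of the track mean, and over the 20 kb inside it read 0.0150. K562 gamma-H2AX at 1 h read 1.10 and 1.06 outside and 0.0167 and 0.0115 inside. HepG2 H2AX replicate 1 read 1.14 outside and 0.801 inside, so HepG2 had no comparable step. At the proximal edge of the same segment K562 H2AX replicate 1 went from 0 inside to 0.340 outside.

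The second segment was entered from a low K562 level. K562 H2AX replicate 1 read 0.348 over the 20 kb before its distal edge and 0.00610 after it, and 0.00915 before its proximal edge and 0.298 after it. HepG2 H2AX replicate 1 read 0.944 and 0.766 across the distal edge, and 0.960 and 0.929 across the proximal edge. The height of the K562 step thus differed between the first edge and the other 3. HepG2 was itself low right at the distal edge of the second segment: in the bins centred 0.5, 1.5 and 2.5 kb inside it HepG2 gamma-H2AX read 0, and HepG2 H2AX read 0.131 to 0.263 in replicate 1 and 0.0952 to 0.471 in replicate 2. In the bin centred 1.5 kb inside the distal edge of the first segment HepG2 gamma-H2AX read 0 and HepG2 H2AX 0.131 and 0.256. Where HepG2 is low as well, the K562 step cannot be placed to 1 kb.

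**Figure D2:**
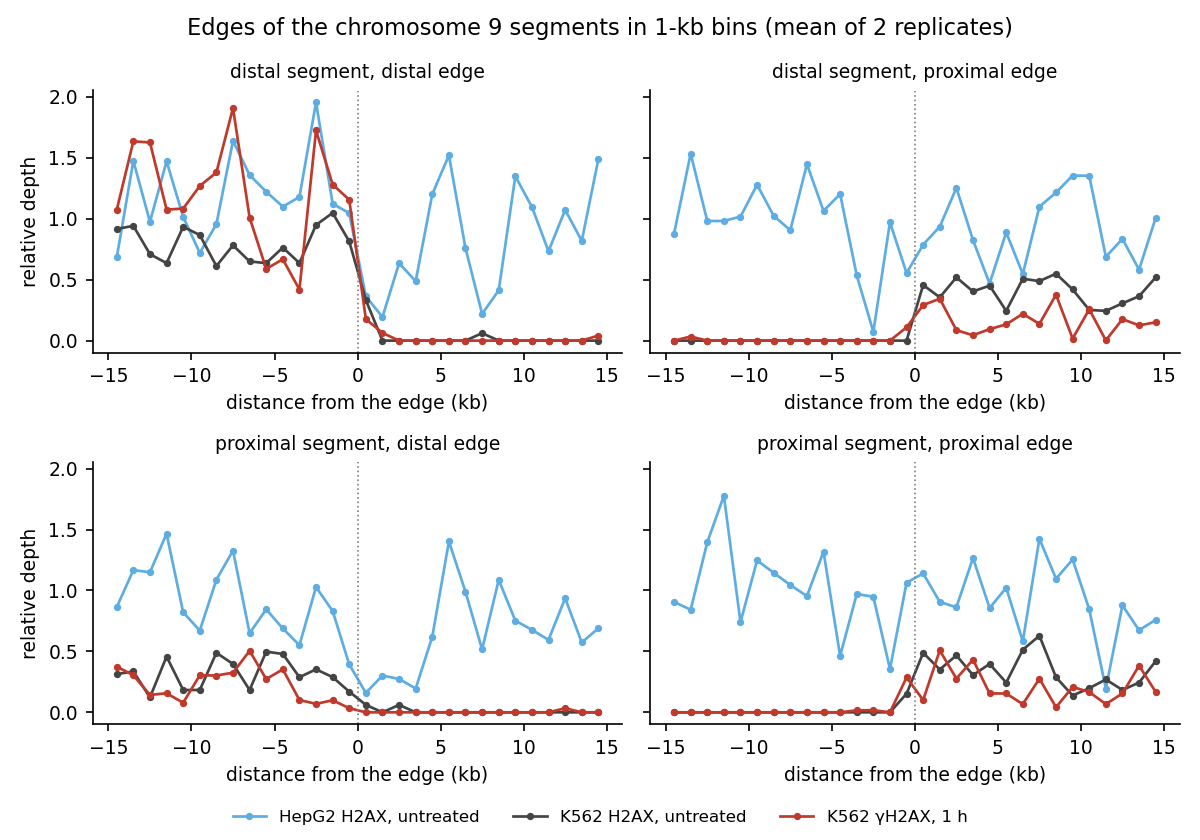
Relative depth in 1-kb bins within 15 kb of the 4 chromosome 9 edges, as the mean of 2 replicates for HepG2 H2AX, K562 H2AX and K562 gamma-H2AX at 1 h; 0 on the horizontal axis is the edge. K562 lines drop to 0 within about 2 bins of each edge, from a level near 1 at the first edge and near 0.3 at the other edges, and HepG2 lines are low in 1 or more bins within 3 kb of each edge, for longest at the distal edge of the proximal segment, and recover inside the segments.

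Edges were also placed in each K562 library by itself, over the 5 loci with at least 5 windows and their 10 edges. The 2 H2AX replicates each put all 10 edges within 2 kb of the position from both, with a largest offset of 1 kb. Libraries that the rule did not use gave nearly the same places: both 1 h gamma-H2AX replicates put 9 of 10 edges within 2 kb, with largest offsets of 4 kb and 5 kb. Replicate 2 of the 24 h group put 9 of 10 within 2 kb, with a largest offset of 3 kb.

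The other 2 libraries placed edges less closely. Replicate 1 of the 24 h group put 4 of 10 within 2 kb, was off by up to 41 kb, and had no step at the right edge of the second chromosome 10 segment, where its track read 0 in the whole 100-kb flank. H3K27me3 put 2 of 10 within 2 kb and was off by up to 39 kb. H3K27me3 is a repressive Polycomb mark that covers only part of the genome, and it averaged 0.0333 to 1.19 of its track mean in the flanks of these edges.

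The level of K562 signal on either side of the chromosome 9 segments differed from that in HepG2. Over the 100 kb distal to the first segment K562 H2AX read 0.727 and 0.739 in replicates 1 and 2, and HepG2 H2AX read 0.972 and 0.988, a ratio of 0.748. Between the segments K562 H2AX read 0.382 and 0.378 and HepG2 H2AX 0.939 and 0.950, a ratio of 0.403. Over the 100 kb proximal to the second segment K562 H2AX read 0.311 and 0.360 and HepG2 H2AX 1.04 and 1.09, a ratio of 0.316. The kept stretch and the proximal 100 kb thus lay below the distal 100 kb in K562, and neither K562 replicate overlapped a HepG2 replicate in any of these 3 regions. Over 1 Mb the flanks were closer, with a ratio of 0.662 distal to the first segment and 0.535 proximal to the second. Inside the segments the same ratio was 0.00149 and 0.00168.

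The K562 to HepG2 ratio of H2AX was then followed in 100-kb pieces. In the 20 pieces from the first segment to the second it ran from 0.287 to 0.530 with a median of 0.416, and it was 0.464 in the first piece and 0.316 in the last. Beyond the second segment it stayed between 0.300 and 0.399 over 6 pieces. In the next pieces, starting at 32222001 and 32322001, it was 0.621 and 0.809, and it lay between 0.777 and 1.05 in the remaining 12. K562 chromatin signal therefore changed level a further time outside the segments, about 600 kb past the proximal edge. In the 20 pieces distal to the first segment the ratio ran from 0.484 to 1.13.

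Gamma-H2AX at 1 h was uneven in the kept stretch, over a wider range than H2AX, which declined in it from 0.437 and 0.488 in the piece starting at 26890001 to 0.268 and 0.261 in that starting at 28290001. In the piece starting at 27390001 gamma-H2AX read 1.07 and 1.18 in replicates 1 and 2, K562 H2AX 0.455 and 0.474, and H3K27me3 0.0322. In the first piece, starting at 26590001, gamma-H2AX read 0.192 and 0.131, K562 H2AX 0.427 and 0.416, and H3K27me3 1.19. Low gamma-H2AX did not always go with high H3K27me3: the piece starting at 28490001 had 0.268 and 0.237 at 1 h, 0.298 and 0.281 in H2AX, and 0.0600 in H3K27me3. Gamma-H2AX at 1 h over H2AX ran from 0.372 to 2.43 in these 20 pieces, with a median of 0.723. In both replicates the mark thus rose above the track mean in the piece starting at 27390001, which borders neither segment. In the pieces that border the segments, starting at 26590001 and 28490001, it stayed below the track mean.

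The level of the 6 libraries that the rule did not use followed the rule's split of cell lines. Of the 927 windows, 922 were under 0.1 in all 5 other K562 libraries, as were 1.25% of all windows. In HepG2 gamma-H2AX 921 were at least 0.5, as were 95.7% of all windows. Both held for 917 windows, and for 0.352% of all windows. These libraries come from the same lines as those of the rule and are not independent of it in this.

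Over all 927 windows, K562 gamma-H2AX at 1 h averaged 0.388% and 0.472% of the track mean in replicates 1 and 2. At 24 h it averaged 0.383% and 0.285%. H3K27me3 averaged 0.0938%, and HepG2 gamma-H2AX 105.6%. All 7 K562 libraries thus lay under 0.5% of their means, and all 3 HepG2 libraries above 95%. The number of windows with no signal at all was 618 and 540 in the 1 h replicates, 808 and 772 in the 24 h replicates, 815 and 788 in K562 H2AX, 857 in H3K27me3 and 0 in each HepG2 library.

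In the distal chromosome 9 segment the floor was 0.378% and 0.460% at 1 h, 0.326% and 0.211% at 24 h, 0.135% and 0.145% in K562 H2AX, and 0.0382% in H3K27me3. In the proximal segment it was 0.391% and 0.436% at 1 h, 0.322% and 0.243% at 24 h, 0.140% and 0.193% in K562 H2AX, and 0.0924% in H3K27me3. Scaled to the track mean, the order of the groups was the same in both segments, with 1 h highest and H3K27me3 lowest. The replicates of different K562 groups did not overlap on this scale. The place of H3K27me3 depended on the scale. Scaled to the track median, over all windows that met the rule, it read 0.428%, above K562 H2AX at 0.179% and 0.198%. It then lay between the 24 h replicates, at 0.435% and 0.317%, and 1 h stayed highest at 0.517% and 0.679%. As percent of the track mean, HepG2 gamma-H2AX read 103.4% and 112.0% in the distal and proximal segments. HepG2 H2AX read 93.0% and 94.3% in the distal segment and 98.4% and 100.2% in the proximal one.

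The 1 h and H3K27me3 tracks also differ from the other K562 tracks in the size of their low-bin steps, and the part of this in the order of the floors was not tested. In read depth the floor was small in every K562 library. Over the 5839 bins of the distal segment the aligned bases came to 31758 and 47896 at 1 h, 6201 and 7289 at 24 h, 5311 and 5670 in K562 H2AX, and 2444 in H3K27me3. HepG2 gamma-H2AX had 3147794 and HepG2 H2AX 3389219 and 3529606. HepG2 gamma-H2AX in that segment was 274-fold and 225-fold above the K562 1 h replicates, and 318-fold and 490-fold above the 24 h replicates.

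**Figure D3:**
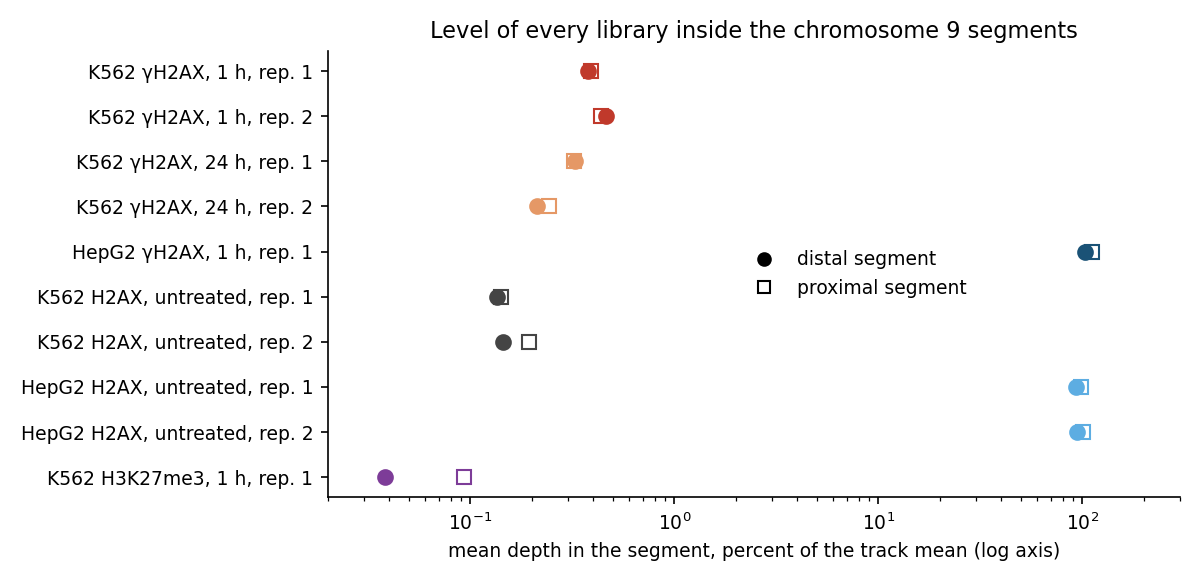
Mean depth of each of the 10 libraries inside the distal (filled circles) and proximal (open squares) chromosome 9 segments, as percent of the track mean on a log axis. The 7 K562 libraries lie between 0.0382% and 0.460%, and the 3 HepG2 libraries between 93.0% and 112.0%.

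The residual K562 signal on chromosome 9 was scattered. Of the 8907 bins of both segments, 7604 (85.4%) read 0 in all 7 K562 libraries, whereas 98.3% were above 0 in all 3 HepG2 libraries. Signal appeared in exactly 1 K562 library in 1116 bins, in at least 4 in 27 bins, and in all 7 in 2 bins. The longest stretch with no K562 signal in any library spanned 62 kb at chr9:25356001-25418000 in the distal segment, and the longest of the proximal segment spanned 52 kb at chr9:31548001-31600000.

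A few bins carried more. The highest was chr9:30903001-30904000, with a depth of 2.21 and 1.59 in the 1 h replicates and 0.881 in H3K27me3, and 0 in the 24 h and H2AX libraries of K562. HepG2 read 0.695 to 0.832 there. These 3 K562 libraries are the ones with 60-bp steps, and in 21 bins all 3 had signal and none of the other 4 did. In 3 bins all of the other 4 had signal and none of these 3 did, a condition on more libraries. These 3 tracks are also deeper, with mean depths of 1.10 to 1.78 against 0.326 to 0.672. The parts of depth and step size in these counts were not tested. The 1 h depth in the highest bin is above the limit past which 24 h replicate 1 read 0 genome-wide, and 24 h replicate 2 also read 0 there. The 10 highest bins held 8.91% to 44.5% of the residual depth in the K562 libraries, and 0.318% to 0.385% of the depth in the HepG2 libraries.

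The bins with signal in all 7 K562 libraries were chr9:24293001-24294000 and chr9:29134001-29135000. In the former K562 depth ran from 0.0380 in H3K27me3 to 0.156 in 1 h replicate 2, and HepG2 depth from 0.493 to 0.751. In the latter K562 depth ran from 0.0440 to 0.176 and HepG2 depth from 0.721 to 0.884. K562 depth was thus below HepG2 depth in both.

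Window by window, K562 libraries resembled each other little within the segments. Over the 879 chromosome 9 windows Spearman's rho between K562 libraries ran from -0.0106 to 0.235, where most windows are at 0 and share that value. Between HepG2 libraries it was 0.461 for the H2AX replicates, and 0.332 and 0.273 for gamma-H2AX against each of them. Neighbouring windows and shared base composition enter all of these values, which are descriptions across windows.

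On chromosome 10 a segment at chr10:103603001-103796000 spanned 193 kb and held 18 windows, all of those tested in it. Its floor was 0.476% and 1.26% of the track mean at 1 h, 0.259% and 0.610% at 24 h, 0.140% and 0.124% in K562 H2AX, and 0.0364% in H3K27me3. HepG2 read 90.5% in gamma-H2AX and 108.0% and 101.7% in H2AX. Unlike the chromosome 9 stretch, both flanks were near full K562 level: over 10 windows on the left and right K562 H2AX replicate 1 read 0.907 and 0.926. The nearest window on each side lay partly inside the segment.

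A second segment at chr10:126641001-126731000 spanned 90 kb, and 7 of its 8 windows met the rule. It had the highest floor of the 5 segments, with 2.96% and 4.46% at 1 h, 3.89% and 4.55% at 24 h, 5.01% and 4.97% in K562 H2AX, and 11.8% in H3K27me3. Away from the edges, a single bin held the most in 6 of the 7 K562 libraries: chr10:126677001-126678000, in the window that did not meet the rule. Its depth was 1.48 and 2.58 at 1 h, 0 and 1.58 at 24 h, 1.60 and 1.63 in K562 H2AX, and 7.14 in H3K27me3. The mean 1 h depth of this bin is above the limit past which 24 h replicate 1 read 0 in every autosomal bin. HepG2 read 1.14 in gamma-H2AX and 1.78 and 1.13 in H2AX.

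This bin held 60.5% to 77.4% of the depth more than 5 kb inside the edges in every K562 library but 24 h replicate 1, against 2.75% to 3.83% for the highest bin of each HepG2 library. Of the 80 bins there, 70 read 0 in all 7 K562 libraries and 6 had signal in at least 5. The residual thus lay in few bins here, and most of these were shared between K562 libraries.

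The chromosome 4 segment, chr4:34780001-34829000, spanned 49 kb and held 5 windows. K562 H2AX was 0 in all 49 bins in both replicates, as was 1 h replicate 1, and the other K562 libraries had signal in 1 to 3 bins. HepG2 gamma-H2AX read 114.3% of the track mean and HepG2 H2AX 85.7% and 81.2%. At its left edge 5 of the 7 K562 libraries placed the step in the same bin and the other 2 within 2 kb, and K562 H2AX in the flanks read 0.675 to 0.722.

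**Figure D4:**
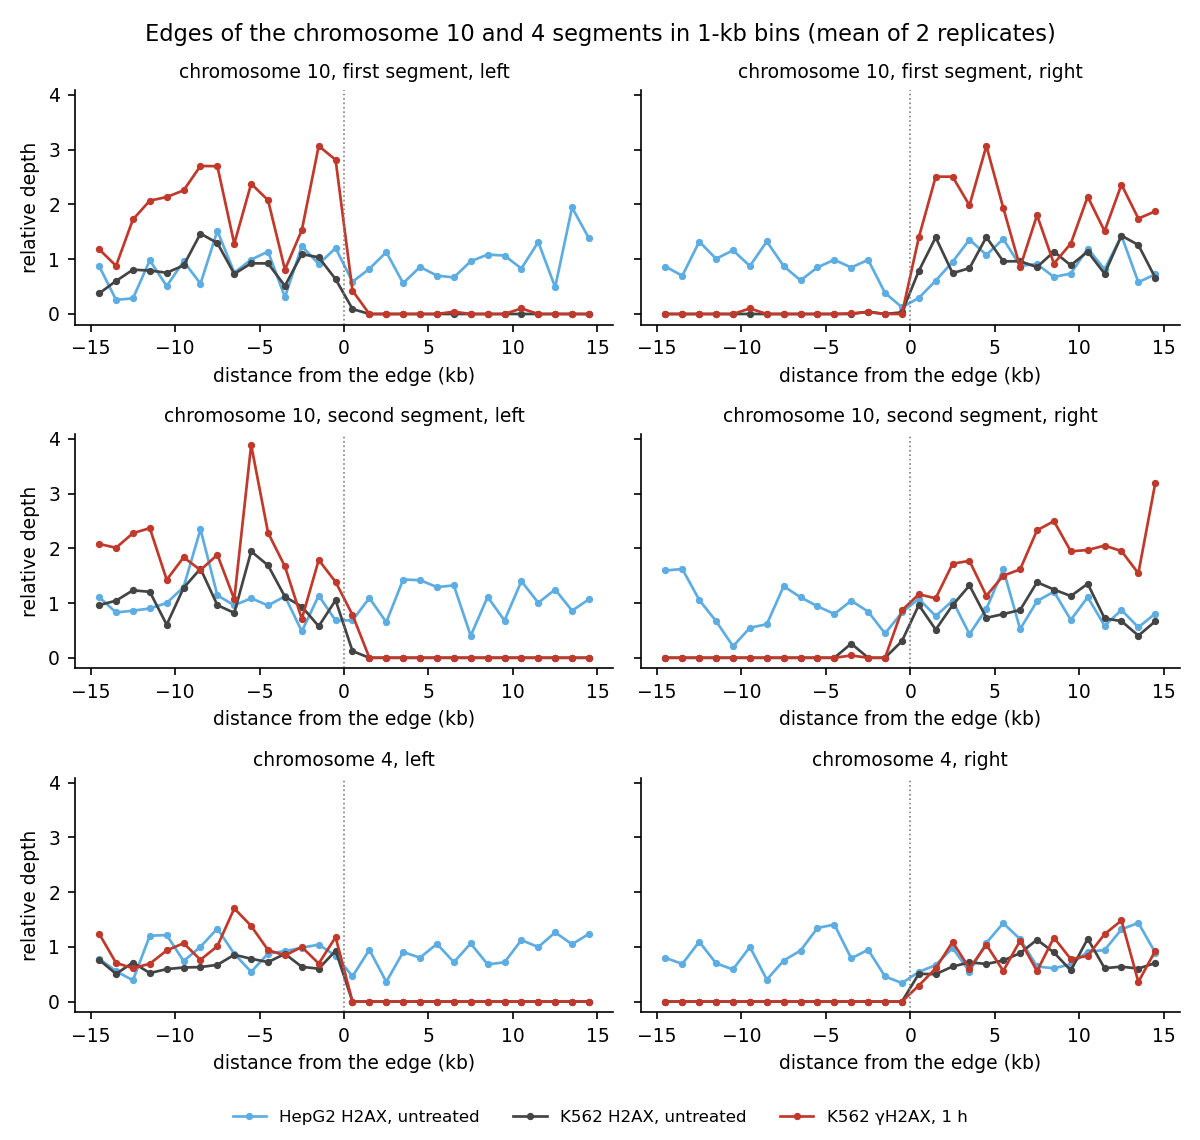
Relative depth in 1-kb bins within 15 kb of the edges of the 2 chromosome 10 segments and the chromosome 4 segment, as the mean of 2 replicates. K562 lines fall to 0 at each edge while HepG2 lines, low in some bins next to edges, go on at other bins inside, and K562 gamma-H2AX at 1 h lies above K562 H2AX in most bins outside the chromosome 10 edges.

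The other 9 loci held 18 windows on chromosomes 2, 4, 5, 9, 12, 14 and 17, and their edges were not placed. Those on chromosome 17, windows starting at 18360001 and 18440001, and on chromosome 14 at chr14:74000001-74020000 had low HepG2 gamma-H2AX of 0.354, 0.244 and 0.477. The locus at chr9:44240001-44270000 read 0.00921 and 0.0341 at 1 h, 0.0534 and 0.0566 at 24 h and 0.0244 and 0.0339 in K562 H2AX, above the floor of the long segments. In all, 10 of the 927 windows did not show the pattern in the 6 other libraries, 6 of them in these short loci or by the chromosome 4 edge. The highest floor of any of them was 0.296 in 24 h replicate 1 at chr4:34820001-34830000, a window that holds the right edge of its segment, where 24 h replicate 2 read 0.0969.

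Gamma-H2AX at 1 h was compared between the lines over all 262343 windows whose relative depth averaged at least 0.1, with limma on log2(relative depth + 0.05). The test called 1554 windows (0.592%), 1496 (0.57%) lower in K562 and 58 (0.0221%) higher. Of the 927 windows 924 were lower, with a median log2 fold change of -4.37, against -0.40 over all windows. These windows passed the filter through HepG2, in which they were chosen to be high, so this count describes them and supports nothing further. They made up 61.8% of all windows called lower, and 0.219% of the other windows were called. Without 24 h replicate 1, 98148 windows were lower and 49009 higher, and all 927 were lower.

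At the windows with the most K562 H2AX, chr9:44240001-44250000 differed by a log2 of -3.02 between the lines (n = 2 against 1). At chr4:34820001-34830000 it was -3.57, and at chr10:126680001-126690000 it was -3.53. The last was not called, nor were the windows at 74000001 on chromosome 14 (-3.27) and 18440001 on chromosome 17 (-2.44). The rule chose all of these windows by their levels in the 2 lines, so whether each was called is no test of it. HepG2 has 1 library, assumed to vary like the other groups, and its low-bin steps are of 41 bp against 60 bp in K562 at 1 h, so cell line and step size cannot be told apart in this contrast.

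**Figure D5:**
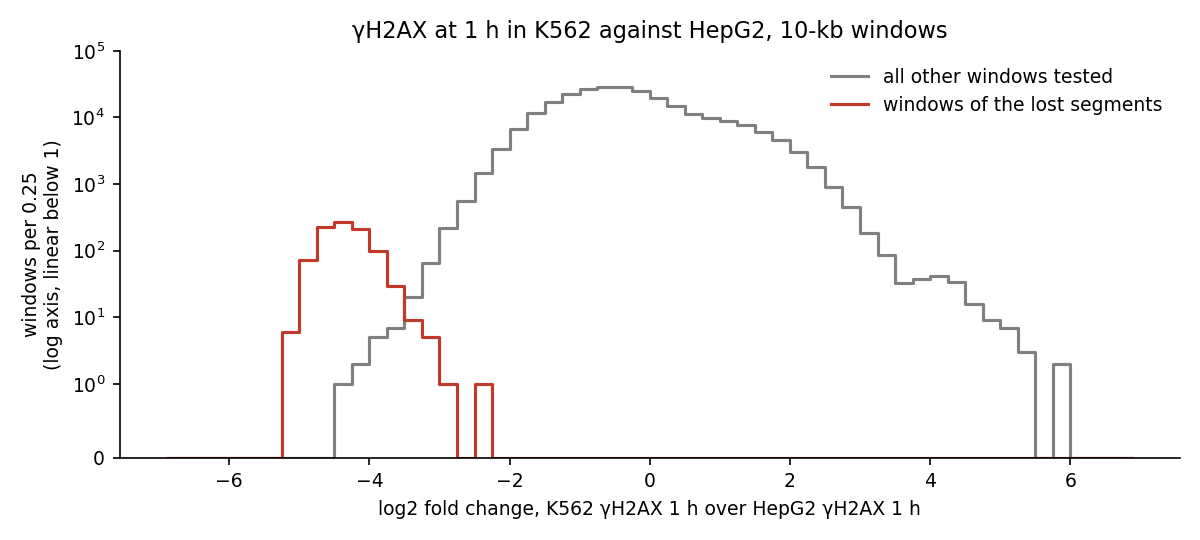
Number of 10-kb windows (log axis, linear below 1) by log2 fold change of gamma-H2AX at 1 h in K562 over HepG2, for the windows of the segments and for all others tested. The segments centre on -4.37 and all windows on -0.40, with little overlap between the groups.

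In HepG2, which keeps the segments, gamma-H2AX at 1 h (n = 1) was compared with untreated H2AX (n = 2). Limma called 0 of 262343 windows (0%) and 0 of the 927. The fit takes its spread from all libraries, and those of K562 are at the floor in the 927 windows. Its unadjusted p-values there are therefore not compared with those of all windows. Their median log2 fold change was 0.14 against -0.00 over all windows, and 67.0% of them were positive against 49.6% of all windows. On the rest of chromosome 9 the median was -0.04 over 10085 windows and 45.8% were positive. The direction was not uniform: the median was 0.14 in the distal and 0.17 in the proximal chromosome 9 locus, with 387 of 575 and 217 of 304 windows positive, and -0.21 and -0.49 in the chromosome 10 loci, with 3 of 18 and 1 of 7 positive. HepG2 H2AX was used by the rule, so these values are a description.

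HepG2 gamma-H2AX in the 927 windows ran from 0.244 to 1.85 around a median of 1.05. The highest window, chr9:30360001-30370000, read 1.85 in gamma-H2AX and 0.992 and 1.24 in the H2AX replicates. In K562 1 h replicate 2 it read 0.00662, and the other 6 K562 libraries were at 0 there.

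In K562 itself the question is left to the flanks, since the windows of the segments are at the floor in both groups. Flanks were the 10 whole windows beyond each of the 10 locus ends, not counted from the 1-kb edges. The nearest window can thus lie partly inside a segment: chr9:20750001-20760000 read 0.0844 and 0.157 in K562 H2AX. Limma called 0 of 100 flank windows for gamma-H2AX at 1 h against H2AX, as it did over all windows (0%, with 81267 at an unadjusted p under 0.05). The median log2 fold change was 0.16 in the flanks and -0.05 over all windows. The low-bin steps are of 60 bp in the 1 h tracks and 41 bp in the K562 H2AX tracks. Mark, irradiation and step size therefore cannot be told apart here, nor wherever these groups are set side by side. Without 24 h replicate 1, 29 of the 100 flank windows were higher and 17 lower. Of all 262343 windows 49764 were higher and 96872 lower, so the balance of directions was the reverse of that in the flanks.

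The flanks differed by place. To the right of the second chromosome 10 segment gamma-H2AX read 2.03 and 2.82 at 1 h against 0.948 and 0.834 in H2AX. To the right of the first chromosome 9 segment it read 0.192 and 0.131 against 0.427 and 0.416. Groups did not overlap in either flank, in opposite directions. To the left of the second chromosome 9 segment gamma-H2AX read 0.239 and 0.223 and H2AX 0.279 and 0.270, a smaller difference. H3K27me3 read 0.0843, 1.19 and 0.0568 in these 3 flanks. Beside the chromosome 4 segment gamma-H2AX read 0.952 and 0.941 on the left and 0.835 and 0.985 on the right, and H2AX 0.691 to 0.696 and 0.675 to 0.722.

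The deposited peak lists held no peak in the 927 windows. The lists had 41947 and 46072 peaks at 1 h and 8 and 13 at 24 h in K562, and 170 in HepG2. At the windows' share of the autosomal windows the 1 h lists would place 145 and 160 peaks there, and the 24 h and HepG2 lists fewer than 1. Each 1 h list had 1 peak in the kept stretch between the chromosome 9 segments, and the other 3 lists had none there. Few peaks lay beside the segments as well: the 1 h lists had 0 and 1 in the 1 Mb distal to the first segment. In the 1 Mb proximal to the second they had 5 and 3. At q under 0.05 the 1 h lists held 3397 and 6785 peaks, with 0 in both flanks and in the kept stretch.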

How the data were processed

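CUT&RUN tracks of 10 libraries were used with 5 peak lists. Per the submitters' processing notes the build was hg19 and the tools included MACS2, SAMtools and BWA 0.7.12, without roles or settings. The deposited coverage signal is the mean read depth per base in 1-kb bins, in whole thousandths and not scaled to depth. The deposited peak lists give a fold enrichment ratio, a score, and −log10 p and q values, called per library; positions were used, and −log10 q for a stricter list.

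Each track was divided by its mean without chromosome Y, and bins were averaged into 10-kb windows (at least 5 bins). Edges were least-squares steps within 50 kb. Windows with a mean relative depth of at least 0.1 were tested with limma 3.58.1 (R 4.3.3) on log2(relative depth + 0.05), a scale that understates the fold change of windows near 0. The fit had a mean-variance trend, 6 group means over all 10 libraries and 4 residual degrees of freedom, and calls had a p under 0.05 after Benjamini-Hochberg adjustment. The fit was tested on simulated data. Other software was numpy 2.4.6, scipy 1.17.1, matplotlib 3.10.9 and pandas 2.3.3 in Python 3.11.15. No hg19 genome or annotation was used, so no genes were assigned and no sequence is printed.

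Regions named are every locus of at least 5 windows, the 3 windows with the highest K562 H2AX and the 3 nearest each threshold; bins, 100-kb pieces and short loci named beyond these were chosen after their values were seen. The windows, lists and tests were chosen with earlier results of these data known. Alternatives covered thresholds, window size, scaling, pseudocount, the filter on low values, the libraries fitted and left-out replicates.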

Additional observations from a re-analysis of the deposited data

How the results depend on the processing

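Covered length stayed at 7.8 to 9.81 Mb under every rule tried, while the number of windows and runs moved with their size: 1815 windows in 109 runs at 5 kb and 464 windows in 12 runs at 20 kb. Runs numbered 67 with K562 under 0.2, 130 with HepG2 at least 0.75 and 14 when joined across other windows. Leaving out 1 H2AX replicate gave 929 to 939 windows, 23 to 34 runs, 9.29 to 9.39 Mb and 10 of 10 edges within 2 kb. Edges within 2 kb fell to 4 in 24 h replicate 1 alone and 2 in H3K27me3 alone. The highest K562 floor, 0.472% of the track mean, became 0% as a median over bins and 0.679% scaled to the track median, and the lowest HepG2 level became 92.0% and 102.4%.

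Calls between the lines numbered 1554, against 147157 without K562 24 h replicate 1 and 91460 with only the libraries compared; leaving out a 1 h replicate gave 986 to 1072 calls and 904 to 906 of the 927 windows lower, and over all settings 870 to 927 were lower. HepG2 gamma-H2AX against H2AX gave 11 calls of 265024 windows with no filter (4 of the 927). With only the libraries compared it gave 10784 of 262343 (27 of the 927). The called share was thus higher in the 927 than over all windows in the former setting and lower in the latter. HepG2 H2AX was used by the rule, so these shares are a description. The median log2 over the 927 was 0.126 without H2AX replicate 1 and 0.146 without H2AX replicate 2. K562 gamma-H2AX against H2AX gave 12 calls with no filter, 1 under median-of-ratios scaling, 146636 without 24 h replicate 1 and 135342 with only the libraries compared, and 0 without any 1 replicate of the groups compared; flank calls were 46 without 24 h replicate 1 and 41 with only the libraries compared, and 0 without any of those replicates. The cause of these changes in calls was not tested. Median-of-ratios scaling moved the median log2 over all windows from -0.40 to 0.09 between the lines and from -0.05 to 0.27 for K562 gamma-H2AX against H2AX.

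Replicates share a number in the labels only: correlations of their deviations ran from -0.0817 to 0.338. With the replicate number as a block 1016 windows were called between the lines, 918 of the 927 lower, and 0 in the other comparisons. Depth limits the floor, since a bin of a K562 H2AX track at 1 read of 41 bp already reads above 0 and most bins held none.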
